A study of Mus musculus with 36 samples.

Results

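The 10 genes described here are targets of Kmt2a fusion proteins outside the Hoxa cluster, followed through sorted blood stem and progenitor cells of Kmt2a-AFF1+ mice: Runx1, Runx2, Zeb2, Mef2c, Cdk6, Jmjd1c, Cpeb2, Prom1, Bcl11a and Eya1. They were chosen by name, and all 10 were found by symbol among the 55414 gene identifiers of the deposited tables. The leukaemia mice were labelled miR-130b overexpressing Kmt2a-AFF1+, and their central nervous system (CNS) and bone marrow (BM) were sampled at terminal leukaemia. The control mice, labelled miR-scramble overexpressing Kmt2a-AFF1+, carried the same fusion with a scrambled microRNA, were not leukaemic and gave BM. Both arms therefore carried Kmt2a-AFF1, and the comparison of leukaemia with control is not a comparison of cells with and without the fusion. The cells were sorted into 3 types, all lineage-negative and c-Kit-positive: HSC/MPP (Sca-1-positive, Flt3-negative), LMPP (Sca-1-positive, Flt3-positive) and LK/CLP (Sca-1-negative), abbreviated to HSC, LMPP and LK. Each of 12 leukaemia mice gave 1 CNS and 1 BM library of a single type, and each of 4 control mice gave 1 BM library of every type, so that 36 libraries formed 9 groups of 4. Neither the age of the mice nor the promoter driving the fusion is stated in the sources used here. Disease, microRNA construct, the set of mice and the deposited table all separated the arms in the same way and cannot be told apart.

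KMT2A is a histone H3 lysine 4 methyltransferase that keeps developmental genes active in blood stem cells. In leukaemia its amino-terminal part, which holds the chromatin-binding domains, is joined to a partner such as AFF1, a scaffold of the elongation complexes that release paused RNA polymerase II. The fusion protein binds promoters and gene bodies of a set of loci, recruits DOT1L and P-TEFb and holds them in active transcription. Besides the Hoxa genes and Meis1, these loci include transcription factors of blood development (Runx1, Runx2, Mef2c, Zeb2, Bcl11a), a cell cycle kinase (Cdk6), a chromatin regulator (Jmjd1c), an mRNA-binding protein (Cpeb2), a surface protein (Prom1, also known as CD133) and a transcriptional coactivator with phosphatase activity (Eya1).

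The labels of the samples and the design text of the series name different microRNAs of one family, miR-130b and miR-130a. Their mature sequences (RefSeq, GRCm38.p6) are shown because the 2 sources name different members of the family, with the seed, bases 2 to 8, in capitals.
mmu-miR-130a-3p: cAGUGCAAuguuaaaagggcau
mmu-miR-130b-3p: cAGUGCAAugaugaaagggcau
The seed is the same in both. They differ at 2 positions, counted from the 5′ end, with the base of miR-130a first: U11A and A13G. The precursor genes of both carried 0 to 9 counts in every library of this total RNA preparation, which does not measure mature microRNAs, so the overexpression was not checked here.

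RUNX proteins bind DNA at the core TGTGGT together with their partner CBFB, and the distal promoters of Runx1 and Runx2 are known to carry such elements. One promoter of each gene is shown because it holds this core and both genes were higher in leukaemia in the comparisons below, with TGTGGT and its reverse complement ACCACA, searched on both strands, in capitals. Each stretch runs 5′ to 3′ on the strand of the gene, from 250 bases before to 50 bases after an annotated start (RefSeq, GRCm38.p6, both on the minus strand).
Runx1, chr16:92826025-92826324: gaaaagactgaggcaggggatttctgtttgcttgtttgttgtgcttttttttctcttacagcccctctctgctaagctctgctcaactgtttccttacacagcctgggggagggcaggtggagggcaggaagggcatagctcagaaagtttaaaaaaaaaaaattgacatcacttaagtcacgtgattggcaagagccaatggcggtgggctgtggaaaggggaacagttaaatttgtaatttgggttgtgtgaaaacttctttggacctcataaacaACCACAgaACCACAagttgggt
Runx2, chr17:44814578-44814877: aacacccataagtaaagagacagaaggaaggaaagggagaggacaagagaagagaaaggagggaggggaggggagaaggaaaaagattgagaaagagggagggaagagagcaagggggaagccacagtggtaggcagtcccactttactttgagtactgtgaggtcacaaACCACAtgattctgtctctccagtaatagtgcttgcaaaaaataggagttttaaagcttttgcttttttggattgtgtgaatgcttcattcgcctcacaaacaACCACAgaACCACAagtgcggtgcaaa
The Runx1 stretch held 2 matches and the Runx2 stretch 3, against 16.8% of 32851 mouse promoters of the same 300 bases with at least 1, 1.81% with at least 2 and 0.183% with at least 3. In both stretches ACCACA occurred as a pair separated by 2 bases after the annotated start. The other Runx1 promoter in the reference, chr16:92697280-92697579, held 0. The reference gave 16 promoters for 8 members, and 3 of these 16 held the motif, a share near that of all promoters, the third being a promoter of Prom1 with 1 match. A match describes these letters and no more.

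The leukaemia libraries held 1.91 to 30.4 M counts, and the control libraries 3.55 to 21.6 M. Sensory receptor genes carried counts in every library, and their counts per kb of exon were used as the estimate of a background. This background was taken to be uniform along the genome, which was not tested. This background amounted to 0.417 to 25.6% of counts in leukaemia and 6.28 to 26.7% in control libraries, and was lowest among controls in LK. The RNA of the sort markers followed the gates for Sca-1: Ly6a had 5.0 to 28 CPM (counts per M counts of the library) in the HSC and LMPP groups and 0.228 to 3.02 CPM in the LK groups. Flt3, which defines LMPP, had 139 to 492 CPM in leukaemia BM LMPP and 99.7 to 301 CPM in control LMPP. In LK, however, Flt3 stood at 80.6 to 282 CPM in leukaemia BM and at 20.1 to 37.6 CPM in control with no overlap. The libraries left out together as standing apart were 3, chosen with earlier results known: CNS HSC replicate 1, with 2124 CPM of 13 macrophage and microglia markers against a group median of 257 CPM, BM LMPP replicate 1, with 4347 CPM of 12 neutrophil markers against a group median of 261 CPM, and BM LMPP replicate 3, with the smallest total. Others differed from their groups as well: 9 erythroid markers summed to 545 CPM in CNS HSC replicate 4 (group median 107 CPM) and 248 CPM in CNS LK replicate 1 (group median 62.5 CPM), and BM HSC replicate 4 had 25.6% background, with 8.68 to 8.83% in the rest of its group. In bulk RNA, fewer cells of a type and less RNA per cell cannot be told apart.

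Per kb of exon, Cdk6 was the most abundant member, with a mean of 29.4 CPM per kb over the 36 libraries. Runx2 followed at 11.1, Mef2c at 7.45, Runx1 at 7.08, Jmjd1c at 6.72, Bcl11a at 6.18 and Zeb2 at 4.8 CPM per kb. Cpeb2, Prom1 and Eya1 had pooled means of 1.49, 1.42 and 1.20 CPM per kb. The order differed by group: in control HSC Eya1 and Prom1 averaged 3.45 and 3.21 CPM per kb, with Mef2c at 3.34 and Zeb2 at 3.17, and in control LMPP Eya1 averaged 3.50 and Zeb2 2.88. In control LK Runx2 averaged 4.76 CPM per kb, below Runx1, Zeb2, Jmjd1c and Bcl11a. The first 7 genes exceeded 3 times the background for their exon length in 27 to 35 of 36 libraries. Among the 12 control libraries, Runx2 and Cdk6 did so in 11, Bcl11a in 10, Runx1, Mef2c and Jmjd1c in 6 and Zeb2 in 5. Cpeb2 did so in 16 libraries, all of them leukaemic, Prom1 in 10 and Eya1 in 3. Much of the signal of the last 3 genes in these libraries was thus at or near the background. In all, 7 members share exonic bases with a gene on the opposite strand or with a small RNA, but these neighbours averaged at most 3.10 CPM.

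**Figure D1:**
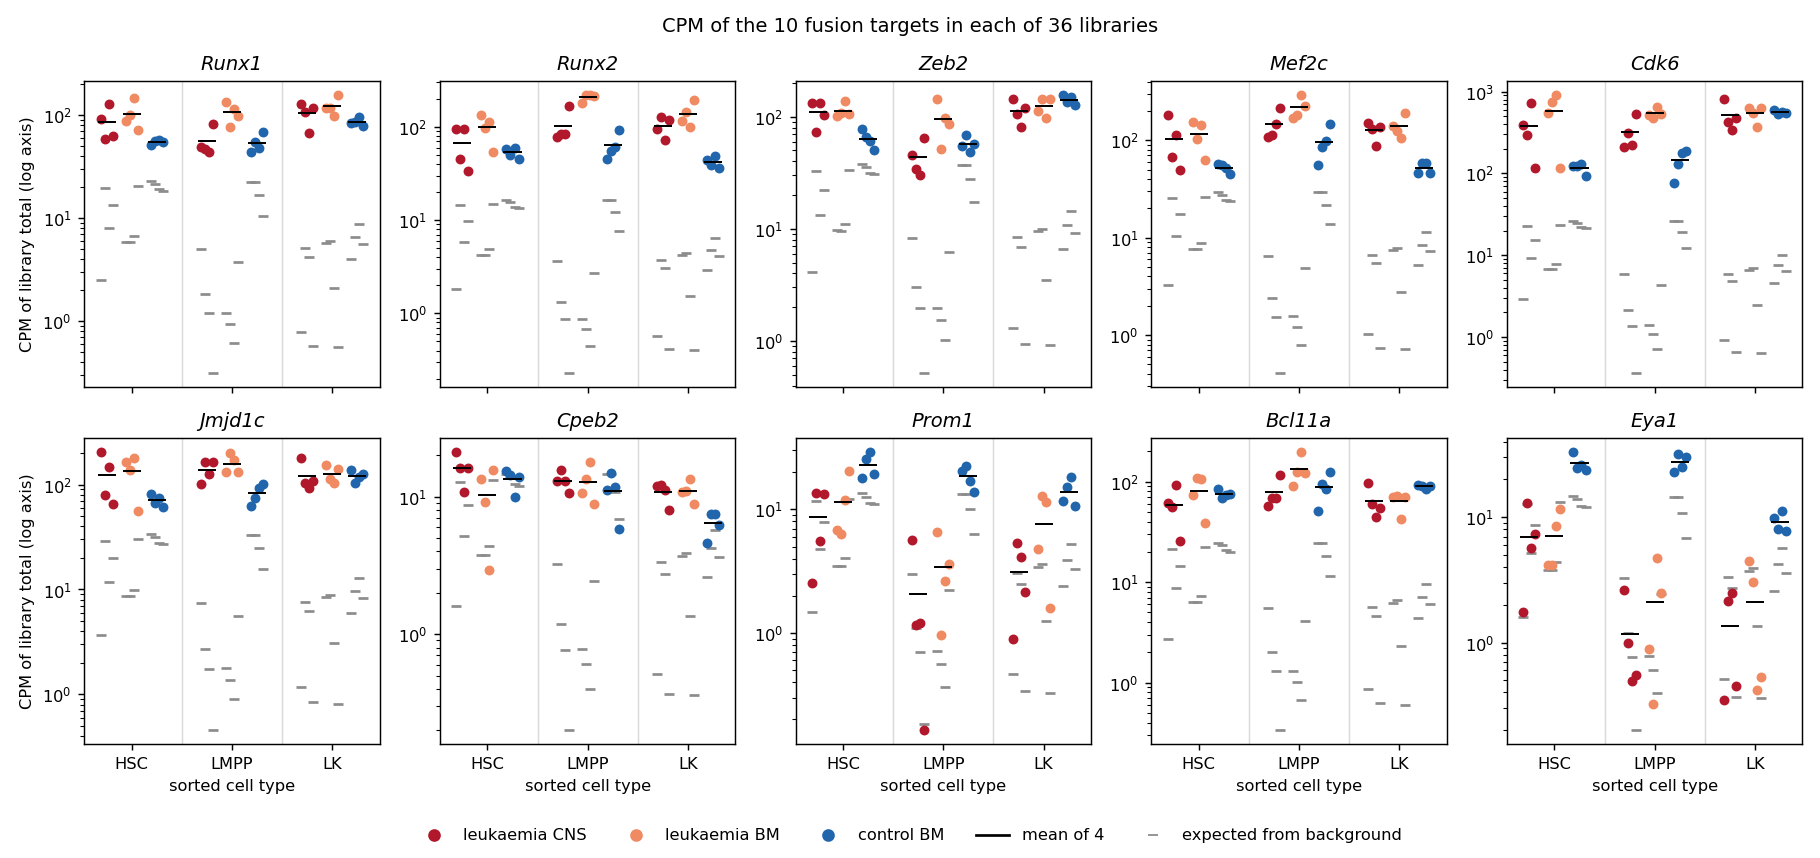
CPM of each fusion target in each of the 36 libraries (log axis), by sorted type, with leukaemia CNS, leukaemia BM and control BM as coloured points, group means as black bars and the level expected from the uniform background as grey dashes. Cdk6 lies between 77.1 and 910.4 CPM, while most Eya1 values of leukaemia cells lie at or near the grey dashes.

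Leukaemia against control was tested within each sorted type of BM. The principal test was edgeR on all genes with at least 10 counts in 4 libraries. In leukaemia HSC 7 of 10 members were higher and 0 lower; 8 were higher and 1 lower in leukaemia LMPP; 3 were higher and 1 lower in leukaemia LK. Over all genes tested, 20.3% were called higher and 1.06% lower in HSC, 26% higher and 36.8% lower in LMPP, and 2.22% higher and 1.3% lower in LK. Among genes above background, defined as more than 3 times the background plus 10 counts in at least 4 libraries, 9 members could be tested, all but Eya1. There 6 were higher in HSC, 6 were higher and Prom1 was lower in LMPP, and 3 were higher in LK, against 27.9% of genes higher and 20.1% lower in HSC, 33.3% and 32.6% in LMPP, and 9.8% and 6.82% in LK. The scale of these folds depends on the scaling. The median log2 difference of all genes tested was -0.12 in HSC, -1.10 in LMPP and -0.25 in LK in the principal test and -1.06, -2.78 and -0.63 by library totals, and it was -0.03, 0.02 and -0.04 on genes above background. The median over the 10 members was 2.09, 2.40 and 0.46 in the principal test, and over the 9 members above background 0.89, 0.91 and 0.19. Both values are given for each gene below, after the CPM values, which are scaled by library totals alone. Statements that groups overlap or not refer to these CPM values, and the share of all genes without overlap was not counted.

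Runx1 and Runx2 are DNA-binding subunits of core binding factor; Runx1 is required for the emergence of blood stem cells, and Runx2 is best known from bone and is expressed in plasmacytoid dendritic cells and early progenitors. Runx1 had 86.4, 100.4, 147 and 71.2 CPM in leukaemia BM HSC, against 51.4, 55.7, 56.7 and 54.4 CPM in control HSC. In LMPP it had 134, 76.7, 113 and 97.9 CPM in leukaemia BM, against 43.1, 54.8, 48.2 and 67.5 CPM in control. LK cells had 116, 117, 97.4 and 156 CPM in leukaemia BM, against 84.3, 85.1, 94.5 and 77.2 CPM in control. The groups did not overlap in any of the 3 types, although control HSC values were only 2.28 to 3.00 times the background. The log2 difference was 2.14 ± 0.41 (SE) in HSC and 2.53 ± 0.41 in LMPP (edgeR adjusted p = 7.7e-05 and 3.72e-06), and 0.89 ± 0.21 and 0.96 ± 0.21 on genes above background (edgeR adjusted p = 0.00161 and 0.000365). In LK it was 1.01 ± 0.40 (edgeR adjusted p = 0.158) and 0.65 ± 0.21 on genes above background (edgeR adjusted p = 0.0322), the second being lost without BM LK replicate 4 or without any single one of the control LK libraries.

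Runx2 was higher in leukaemia in all 3 types, with the arms clearly apart in LMPP and LK. It had 134, 97.3, 114 and 54.0 CPM in leukaemia BM HSC, against 57.6, 50.6, 60.1 and 45.6 CPM in control HSC, where replicate 4 of leukaemia lay within the control range. In LMPP it had 182, 218, 220.5 and 214 CPM in leukaemia BM, against 45.0, 55.7, 61.6 and 92.0 CPM in control. For LK it measured 115, 145, 100.2 and 192 CPM in leukaemia BM, against 43.9, 39.5, 48.9 and 36 CPM in control. The means differed 3.28-fold in both LMPP and LK, with no overlap. The log2 difference was 2.21 ± 0.44 in HSC, 3.17 ± 0.45 in LMPP and 2.21 ± 0.44 in LK (edgeR adjusted p = 0.000125, 6.27e-07 and 0.00112). With the genes above background alone, it was 0.92 ± 0.26, 1.68 ± 0.26 and 1.85 ± 0.26 (edgeR adjusted p = 0.00655, 1.73e-05 and 2.61e-05). Their paralogue Runx3 was higher in leukaemia HSC by 2.37 ± 0.44 and in LMPP by 2.59 ± 0.44 on the log2 scale (edgeR adjusted p = 4.74e-05 and 5.94e-06). The shared partner Cbfb was higher in HSC by 3.03 ± 0.42 and in LMPP by 3.11 ± 0.42 (edgeR adjusted p = 1.93e-06 and 3.34e-07), and both also passed on genes above background.

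Cdk6 encodes a kinase that is activated by D-type cyclins and drives entry into the cell cycle; in blood it is known as a gatekeeper of stem cell quiescence. It showed the widest difference of the members in HSC. Leukaemia BM HSC had 549, 738, 910.4 and 117 CPM, against 123, 125, 130.1 and 92.4 CPM in control HSC, so that 3 leukaemia libraries lay above every control and replicate 4 lay within the control range. That replicate had the highest background share of its group, at 25.6%. In LMPP Cdk6 had 518, 482, 644 and 533 CPM in leukaemia BM, against 77.1, 131, 179 and 189.7 CPM in control, with no overlap and a 3.77-fold difference of the means. In LK it had 623, 545, 371 and 629 CPM in leukaemia BM, against 603, 531, 568 and 545 CPM in control, and the groups overlapped. The log2 difference was 3.66 ± 0.56 in HSC and 3.35 ± 0.55 in LMPP (edgeR adjusted p = 5.04e-06 and 3.47e-06), and 2.31 ± 0.39 and 1.87 ± 0.39 on genes above background (edgeR adjusted p = 8.29e-05 and 0.00024). In LK it was 0.39 ± 0.50 and 0.06 ± 0.37 (edgeR adjusted p = 0.686 and 0.939). Of the cyclins that activate it, Ccnd1 was higher in leukaemia by 2.39 ± 0.41, 3.56 ± 0.43 and 2.80 ± 0.42 in HSC, LMPP and LK, and Ccnd3 was higher by 1.87 ± 0.37, 2.77 ± 0.39 and 1.54 ± 0.37, all with edgeR adjusted p of 0.009 or less. Ccnd2 was higher by 2.16 in HSC and 2.88 in LMPP, with 0.60 in LK, which did not pass. Cdkn2c, an inhibitor of this kinase, was higher by 2.41 ± 0.42, 3.37 ± 0.43 and 1.87 ± 0.40 (edgeR adjusted p = 2.51e-05, 1.51e-07 and 0.00281). The paralogue Cdk4 was higher by 2.56 ± 0.42 in HSC and 2.73 ± 0.42 in LMPP (edgeR adjusted p = 1.17e-05 and 1.6e-06), with 0.21 ± 0.39 in LK (edgeR adjusted p = 0.788).

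Mef2c, a MADS-box transcription factor of lymphoid and myeloid progenitors, was higher in leukaemia in all 3 types. It had 155, 103, 145 and 62.8 CPM in leukaemia BM HSC, against 57.2, 55.7, 52.2 and 44.8 CPM in control HSC, where it stood at 1.86 to 2.12 times the background. In LMPP it had 170.2, 183, 293 and 228 CPM in leukaemia BM, against 56.0, 86.2, 98.2 and 147 CPM in control. LK cells had 141, 124, 107 and 190.2 CPM in leukaemia BM, against 46.5, 58.3, 58.2 and 46.7 CPM in control. No leukaemia library of a type fell within the control range, and Mef2c and Runx1 were the members for which this held in all 3 types in the upward direction. This is a different measure from the shares of genes called, and its share over all genes was not counted. By edgeR the log2 difference was 2.45 ± 0.44, 2.55 ± 0.45 and 1.93 ± 0.44 in HSC, LMPP and LK (edgeR adjusted p = 3.94e-05, 9.49e-06 and 0.00498), and 1.16 ± 0.28, 1.13 ± 0.28 and 1.55 ± 0.28 on genes above background (edgeR adjusted p = 0.00234, 0.00132 and 0.000416). Of its paralogues, Mef2d was higher in HSC and LMPP (log2 difference 2.42 ± 0.41 and 2.98 ± 0.42, edgeR adjusted p = 1.95e-05 and 5.36e-07) and Mef2a in HSC, LMPP and LK (1.70 ± 0.36, 2.14 ± 0.37 and 1.41 ± 0.36, edgeR adjusted p = 0.000311, 7.19e-06 and 0.0157).

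Jmjd1c encodes a protein of the histone H3 lysine 9 demethylase family. It had 162, 138, 178 and 55.5 CPM in leukaemia BM HSC, against 81.8, 67.3, 73.8 and 61.1 CPM in control HSC, with leukaemia replicate 4 below every control. In LMPP it had 131, 199, 172 and 132 CPM in leukaemia BM, against 62.1, 75.2, 92.1 and 101 CPM in control, with no overlap. For LK it measured 153, 112, 103 and 141 CPM in leukaemia BM, against 138, 103, 118 and 126 CPM in control. Its log2 difference was 2.24 ± 0.44 in HSC and 2.43 ± 0.45 in LMPP (edgeR adjusted p = 0.000117 and 1.93e-05), and 0.93 ± 0.27 and 0.91 ± 0.27 on genes above background (edgeR adjusted p = 0.00801 and 0.00504). In LK it was 0.52 ± 0.42 (edgeR adjusted p = 0.506). The paralogues Kdm3a and Kdm3b followed in HSC and LMPP, with log2 differences of 1.61 ± 0.36 and 1.97 ± 0.36 for Kdm3a (edgeR adjusted p = 0.000503 and 2.05e-05) and 2.41 ± 0.42 and 2.70 ± 0.43 for Kdm3b (edgeR adjusted p = 2.74e-05 and 2.31e-06).

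Zeb2 and Bcl11a are zinc finger transcription factors; Zeb2 is needed for the differentiation of blood progenitors, and Bcl11a for lymphoid development and the silencing of foetal globin. Zeb2 had 102, 107, 139 and 105 CPM in leukaemia BM HSC, against 77.2, 65.2, 60.5 and 50.1 CPM in control HSC, with no overlap and control values of 1.64 to 2.06 times the background. In LMPP it had 145, 51.2, 97.4 and 85.6 CPM in leukaemia BM, against 54.8, 69.0, 48.7 and 57.1 CPM in control, where leukaemia replicate 2 lay among the controls. In LK it had 112, 144, 97.6 and 145 CPM in leukaemia BM, against 156, 134, 150.0 and 128 CPM in control. By edgeR the log2 difference was 2.04 ± 0.40 in HSC, 2.37 ± 0.40 in LMPP and 0.27 ± 0.38 in LK (edgeR adjusted p = 9.23e-05, 5.94e-06 and 0.717). Above background, the value was 0.84 ± 0.21, 0.73 ± 0.21 and -0.07 ± 0.21 (edgeR adjusted p = 0.00282, 0.00437 and 0.862). Leaving out BM LMPP replicate 1, the library with the high neutrophil markers, gave 0.37 in LMPP (edgeR adjusted p = 0.0785), and leaving out replicates 1 and 3 gave 0.21 (edgeR adjusted p = 0.357). Bcl11a had 90.9, 125, 199 and 122 CPM in leukaemia BM LMPP, against 50.9, 94.4, 83.8 and 124 CPM in control LMPP. In HSC it had 73.6, 108, 105 and 39.0 CPM in leukaemia BM, against 84.6, 68.2, 73.6 and 74.6 CPM in control, a range that encloses the controls. In LK all 4 leukaemia BM libraries (69.8, 72.0, 42.8 and 70.2 CPM) lay below the controls (92.7, 90.8, 85.1 and 89.4 CPM). Its log2 difference passed the principal test in HSC (1.42 ± 0.41, edgeR adjusted p = 0.00782) and LMPP (1.99 ± 0.42, edgeR adjusted p = 0.000137), but was 0.13 ± 0.28 and 0.57 ± 0.28 on genes above background (edgeR adjusted p = 0.712 and 0.0738). The call in HSC was lost without BM HSC replicate 2. In LK it was -0.07 ± 0.40 and -0.39 ± 0.27 (edgeR adjusted p = 0.943 and 0.365). After subtraction of the background the Bcl11a difference was 1.11 ± 0.42 in HSC, 1.19 ± 0.42 in LMPP and -0.34 ± 0.41 in LK (edgeR adjusted p = 0.0489, 0.0198 and 0.748).

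Cpeb2, Prom1 and Eya1 had the lowest pooled means. Cpeb2, which binds polyadenylation elements of mRNAs and regulates their translation, had 2.92 to 15.6 CPM in leukaemia BM HSC, 8.82 to 17.8 CPM in leukaemia BM LMPP and 8.80 to 13.4 CPM in leukaemia BM LK, against 9.96 to 15.3, 5.80 to 14.9 and 4.59 to 7.51 CPM in the controls of these types. No control library exceeded 3 times its background for Cpeb2. The control values were 0.81 to 1.15 times the background in HSC, 0.77 to 1.08 times in LMPP and 1.31 to 1.78 times in LK. Cpeb2 thus entered the test on genes above background through leukaemia libraries alone, and that test does not take background out of the counts. The principal log2 difference was 0.73 ± 0.37 in HSC, 1.83 ± 0.37 in LMPP and 1.31 ± 0.37 in LK (edgeR adjusted p = 0.181, 9.01e-05 and 0.033). The test restricted to genes above background gave -0.36 ± 0.35, 0.19 ± 0.35 and 0.92 ± 0.35 (edgeR adjusted p = 0.389, 0.657 and 0.0736), so its direction in HSC turned with the scaling. After subtraction of the background the differences were 3.47 ± 1.03 in HSC, 5.29 ± 1.11 in LMPP and 2.02 ± 0.91 in LK (edgeR adjusted p = 0.0108, 0.000443 and 0.243). Counts at or below the background leave no signal after this step. That was the case in part of control HSC and LMPP, so the size of these differences is uncertain. The ratios of mean CPM, leukaemia BM over control, were 0.77 in HSC, 1.16 in LMPP and 1.70 in LK. Without BM LK replicate 3, or without any control LK library, the LK call was lost.

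Prom1, a membrane protein of stem cell protrusions, had 6.57, 0.969, 2.62 and 3.59 CPM in leukaemia BM LMPP, against 20.6, 22.6, 16.9 and 13.8 CPM in control LMPP. All 4 leukaemia libraries were lower than every control, but the controls stood at only 1.54 to 2.20 times the background. The leukaemia libraries stood at 1.61 to 9.22 times theirs, with a mean background for Prom1 of 0.966 CPM, against 10.8 CPM in control LMPP. The principal log2 difference was -0.57 ± 0.45 (edgeR adjusted p = 0.253) and that on genes above background -2.30 ± 0.50 (edgeR adjusted p = 0.000389). After subtraction of the background it was -1.21 ± 0.64 (edgeR adjusted p = 0.106), so the call of Prom1 in LMPP depended on the setting. In HSC and LK the principal differences were -0.05 ± 0.44 and -0.37 ± 0.44 (edgeR adjusted p = 0.959 and 0.662), and those on genes above background -1.04 ± 0.46 and -0.72 ± 0.46 (edgeR adjusted p = 0.0645 and 0.308). Eya1, a coactivator that works with homeodomain proteins, had 0.323 to 11.5 CPM over the 12 leukaemia BM libraries and 7.71 to 33.3 CPM over the 12 control libraries. The groups did not overlap in any type, and leukaemia was the lower one. The principal log2 difference was -0.91 ± 0.42 in HSC, -2.57 ± 0.48 in LMPP and -1.88 ± 0.45 in LK (edgeR adjusted p = 0.14, 2.16e-05 and 0.00853). After subtraction of the background it was -2.96 ± 1.02, -4.93 ± 1.25 and -4.20 ± 1.14 (edgeR adjusted p = 0.0292, 0.0023 and 0.0326), so the call in HSC depended on the setting. In the principal test the call in LK was lost without BM LK replicate 3. Leukaemia BM libraries had 0.306 to 1.96 times the background for Eya1, except for 11.9 times in BM LMPP replicate 3, the smallest library. Controls had 1.56 to 4.41 times. Counts at or below the background leave no signal after subtraction, so the size of the subtracted Eya1 differences is uncertain. The background share averaged 13% in leukaemia BM and 23.8% in control HSC, 2.59% and 20.7% in LMPP, and 5.33% and 9.39% in LK. Its part in the lower Prom1 and Eya1 values was not tested beyond the subtraction of the background.

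**Figure D2:**
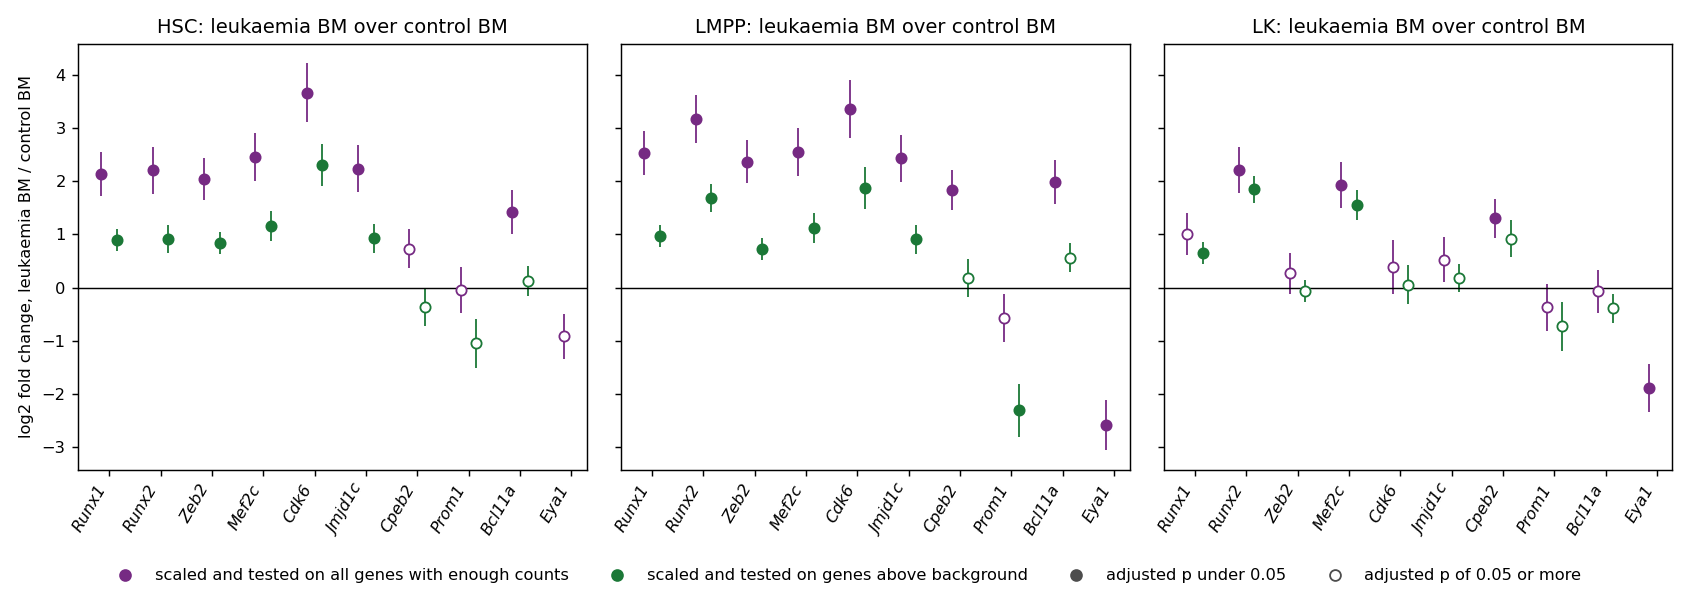
Log2 fold change of leukaemia BM over control BM for each fusion target in HSC, LMPP and LK (points, with SE bars; 4 libraries per group), from the principal test (purple) and on genes above background (green); filled points have an edgeR adjusted p under 0.05. Cdk6 has the highest values in HSC and LMPP and stands at 0.39 and 0.06 in LK, where Runx2 and Mef2c are the highest.

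The difference between leukaemia and control depended on the sorted type for 4 members: Cdk6, Zeb2, Bcl11a and Jmjd1c (edgeR adjusted p of the interaction = 0.00331, 0.0125, 0.03 and 0.0426), against 12.6% of all genes tested. Each was higher in leukaemia in HSC and LMPP in the principal test and did not pass in LK. Leaving out each library in turn kept the call in 24 of 24 fits for Cdk6 and Zeb2, in 15 for Bcl11a and in 5 for Jmjd1c. On genes above background the dependence held for Cdk6 and Zeb2 (edgeR adjusted p = 0.00756 and 0.0369), against 30.6% of genes. Cdk6 kept this call without any single library, and Zeb2 in 12 of 24 such fits. For Runx2 and Mef2c, which passed in all 3 types, the interaction had edgeR adjusted p = 0.367 and 0.684.

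Sums of cell type markers were given by group, and their part in the differences was not tested. A sum does not tell admixed cells from expression by the sorted progenitors themselves. The 12 neutrophil markers summed to 1022 to 2175 CPM in leukaemia BM HSC, against 141 to 161 CPM in control HSC. They summed to 110.4 to 4347 CPM in leukaemia BM LMPP and 112 to 194 CPM in control LMPP, and to 1610 to 8242 CPM in leukaemia BM LK and 4176 to 5788 CPM in control LK. The 9 erythroid markers summed in LK to 34.1 to 148 CPM in leukaemia BM and 563 to 734 CPM in control. The 12 lymphoid markers summed to 56.4 to 235 CPM in leukaemia BM LMPP and 232 to 472 CPM in control LMPP. No marker of the 8 lists was at 0 in all libraries of a group. With BM LMPP replicates 1 and 3 left out, the test on genes above background still called Runx1, Runx2, Mef2c, Cdk6 and Jmjd1c higher and Prom1 lower in leukaemia LMPP. With all libraries, Prom1 was not called in LMPP by the principal test or after subtraction of the background.

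Among 19 further targets of Kmt2a fusions, including the Hoxa genes, 15 were higher and 0 lower in leukaemia HSC, 15 higher and 0 lower in LMPP, and 6 higher and 1 lower in LK, with medians of 2.13, 2.37 and 0.77 in the principal test. The gene lower in LK was Meis1, named after its value was seen. Among genes above background 11, 12 and 8 of 16 were higher and 1 in each type lower, with medians of 1.07, 1.02 and 0.66. In the principal test those with the smallest p were Lgals1, Hoxa10, Bcl2, Hoxa7, Hoxa9 and Mbnl1. Hoxa10, a homeobox gene of stem cell self-renewal, differed by 3.93 ± 0.49, 3.76 ± 0.48 and 3.49 ± 0.48 on the log2 scale in HSC, LMPP and LK (edgeR adjusted p = 3.6e-07, 1.67e-07 and 4.6e-06). Bcl2, an inhibitor of apoptosis, differed by 3.02 ± 0.43, 3.26 ± 0.43 and 1.61 ± 0.41 (edgeR adjusted p = 2.37e-06, 2.41e-07 and 0.0148). Of 21 paralogues and partners of the members, 14 were higher and 0 lower in HSC, 14 higher and 6 lower in LMPP, and 5 higher and 0 lower in LK, with medians of 1.68, 2.09 and 0.60. On genes above background 12, 12 and 8 of 16 were higher and 1, 2 and 0 lower, with medians of 0.77, 1.13 and 0.55.

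Across sorted types of control BM, 8 of 10 members differed, all but Cpeb2 and Eya1, against 41.8% of genes tested. Cdk6 stood out: the 4 control mice had 92.4 to 130.1 CPM in HSC and 77.1 to 189.7 CPM in LMPP, against 531 to 603 CPM in LK. Its log2 difference was -3.63 ± 0.40 for HSC minus LK and -3.02 ± 0.39 for LMPP minus LK (edgeR adjusted p = 2.43e-09 and 7.54e-08), and -2.02 ± 0.23 and -1.62 ± 0.23 on genes above background (edgeR adjusted p = 5.47e-07 and 7.59e-06). Zeb2 was likewise lower in control HSC (50.1 to 77.2 CPM) and LMPP (48.7 to 69.0 CPM) than in LK (128 to 156 CPM), with log2 differences of -2.55 ± 0.29 and -2.45 ± 0.28, and of -0.93 ± 0.13 and -0.99 ± 0.13 on genes above background (edgeR adjusted p = 3.94e-09, 1.36e-08, 3.78e-06 and 2.79e-06). Runx1 was lower in HSC and LMPP than in LK, with log2 differences of -2.0 ± 0.27 and -1.75 ± 0.27, and of -0.41 ± 0.13 and -0.35 ± 0.13 on genes above background (edgeR adjusted p = 1.85e-07, 2.03e-06, 0.00845 and 0.0218).

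The direction between control HSC and LK turned with the scaling for Runx2, Prom1 and Mef2c, and that between LMPP and LK for these and Bcl11a, in the principal test and on genes above background. Runx2 differed by -1.01 ± 0.28 in the principal test and by 0.59 ± 0.17 on genes above background (edgeR adjusted p = 0.00389 and 0.0056), and Prom1 by -0.58 ± 0.20 and 0.97 ± 0.20 (edgeR adjusted p = 0.0185 and 0.00023). Mef2c differed by -1.34 ± 0.30 and 0.24 ± 0.21 (edgeR adjusted p = 0.000401 and 0.307). Plain CPM put Runx2 at 53.5 ± 6.61 in control HSC and 42.1 ± 5.62 in control LK (SD, n = 4). Mef2c in control LMPP, at 56.0 to 147 CPM, differed from LK (46.5 to 58.3 CPM) by 1.22 ± 0.20 on genes above background (edgeR adjusted p = 4.86e-05) and by -0.13 ± 0.29 in the principal test (edgeR adjusted p = 0.755). Among genes above background Mef2c also differed between control HSC and LMPP, by -0.98 ± 0.21 (edgeR adjusted p = 0.0225; 0.0626 with the mouse as a block). In the principal test none of the 10 members differed between control HSC and LMPP. On genes above background 8 members could be tested and 7 differed among the types, all but Bcl11a, against 71.5% of genes.

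In leukaemia BM no member differed among the sorted types in the principal test, with 2 of 10 at an unadjusted p under 0.05 and 0 called by DESeq2, against 0.0149% of genes called. Cdk6 had means of 579 ± 342, 544 ± 70.0 and 542 ± 120.2 CPM in leukaemia BM HSC, LMPP and LK (SD, n = 4), against 118 ± 17.1, 144 ± 51.6 and 561 ± 31.6 CPM in the controls. Control LK lay within the range of leukaemia LK, while all leukaemia LMPP libraries lay above control LMPP. In leukaemia CNS 0 members were called in the principal test, 3 by DESeq2 and 1 of 10 had an unadjusted p under 0.05, against 0.062% of genes. Among genes above background Runx1 and Zeb2 differed among the CNS types (edgeR adjusted p = 0.0402 and 0.012), against 14.9% of genes. Zeb2 had 133, 73.5, 132 and 102 CPM in CNS HSC, 45.1, 34.0, 30.0 and 64.8 CPM in CNS LMPP, and 144, 106, 81.0 and 119 CPM in CNS LK. The log2 difference was -1.36 ± 0.25 for LMPP minus LK and 1.29 ± 0.25 for HSC minus LMPP (edgeR adjusted p = 0.0261 and 0.00905). Without CNS HSC replicate 1, the library rich in macrophage markers, Runx2 and Mef2c passed as well (edgeR adjusted p = 0.0404 and 0.0282).

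**Figure D3:**
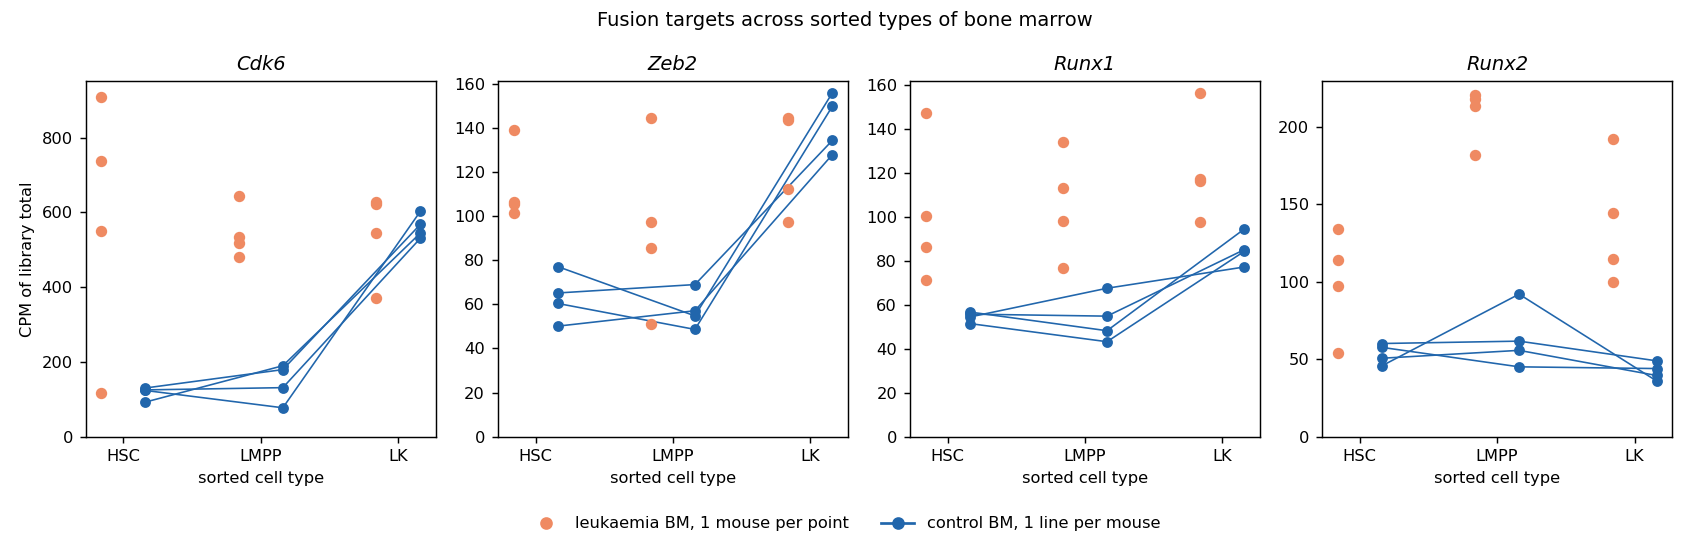
CPM of Cdk6, Zeb2, Runx1 and Runx2 in BM by sorted type, with 1 point per leukaemia mouse (orange) and 1 line per control mouse (blue). Control Cdk6 lies between 77.1 and 189.7 CPM in HSC and LMPP and between 531 and 603 CPM in LK, while 11 of the 12 leukaemia libraries lie at 371 CPM or more.

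CNS was compared with BM in the 12 leukaemia mice. The principal test held no mouse term and did not use the pairs. In the principal test 0 of 10 members passed in the mean of the 3 types, in HSC, in LMPP, in LK or for the dependence on type, and 0% of all genes tested passed in each of these 5 comparisons. At an unadjusted p under 0.05 there was 1 member in the mean and 1 in LMPP, and DESeq2 also called 0, with 2 and 3 at an unadjusted p under 0.05. The pairs come from the same mice, and with the mouse as a block on genes above background 2 members passed in the mean: Runx2 was lower and Cpeb2 higher in CNS, against 0.805% of genes lower and 1.69% higher. In LMPP Runx2 and Zeb2 were lower, against 0.337% of genes lower and 1.6% higher. In HSC and LK 0 members passed, against 0% and 0.00624% of genes, and 0 depended on type, against 0%.

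By CPM, Runx2 was lower in CNS than in BM of the same mouse in 12 of 12 mice. Of the other members, Cpeb2 was lower in 3 of 12 mice and the rest in 8 to 10. How many of all genes were lower in 12 of 12 mice was not counted. Runx2 had 95.9, 45.6, 95.8 and 33.9 CPM in CNS HSC, against 134, 97.3, 114 and 54.0 CPM in BM HSC of the same mice in the same order. In LMPP it had 78.5, 84.1, 83.1 and 169 CPM in CNS, against 182, 218, 220.5 and 214 CPM in BM. This was the one member and type in which CNS and BM did not overlap, and the share of all genes without overlap was not counted. LK cells had 94.1, 128, 73.2 and 119 CPM in CNS, against 115, 145, 100.2 and 192 CPM in BM. The log2 difference within mice was -0.53 ± 0.11 in the mean (edgeR adjusted p = 0.0189) and -0.92 ± 0.18 in LMPP (edgeR adjusted p = 0.0249); in the principal test the mean was -0.49 ± 0.31 (edgeR adjusted p = 1). The call in the mean was lost without LK mouse 3 or 4, and that in LMPP without LMPP mouse 1, 2 or 3. Without the 3 libraries left out together the mean was -0.50 ± 0.13 and LMPP -0.81 ± 0.27 (edgeR adjusted p = 0.236 and 0.999).

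Zeb2 was lower in CNS in 4 of 4 LMPP mice and in 10 of 12 mice in all. CNS LMPP had 45.1, 34.0, 30.0 and 64.8 CPM, against 145, 51.2, 97.4 and 85.6 CPM in BM LMPP, a log2 difference within mice of -0.92 ± 0.22 (edgeR adjusted p = 0.0422). The call was lost in 6 of 12 fits that left out a mouse, and without the 3 libraries left out together the value was -0.45 ± 0.24 (edgeR adjusted p = 0.999). Runx1 followed the same order in LMPP, with 48.5, 47.1, 43.4 and 81.8 CPM in CNS, against 134, 76.7, 113 and 97.9 CPM in BM, at -0.78 ± 0.20 (edgeR adjusted p = 0.0594). Cdk6 had 211, 312, 225 and 532 CPM in CNS LMPP, against 518, 482, 644 and 533 CPM in BM LMPP, at -0.69 ± 0.27 (edgeR adjusted p = 0.258), where mouse 4 had nearly the same level in both. Cpeb2 was higher in CNS in 9 of 12 mice, by 0.47 ± 0.11 in the mean (edgeR adjusted p = 0.0419), a call lost in 11 of 12 fits that left out a mouse and at 0.51 ± 0.14 (edgeR adjusted p = 0.255) without the 3 libraries. Its values in HSC were 21.3, 16.2, 10.7 and 16 CPM in CNS, against 13.5, 9.20, 2.92 and 15.6 CPM in BM. Jmjd1c stood at 0.03 ± 0.12 and Mef2c at -0.17 ± 0.10 in the mean (edgeR adjusted p = 0.978 and 0.596). Of the further targets, Bcl2 and Tapt1 were lower in CNS in the mean and in LMPP, and 0 of the 16 paralogues and partners tested passed.

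**Figure D4:**
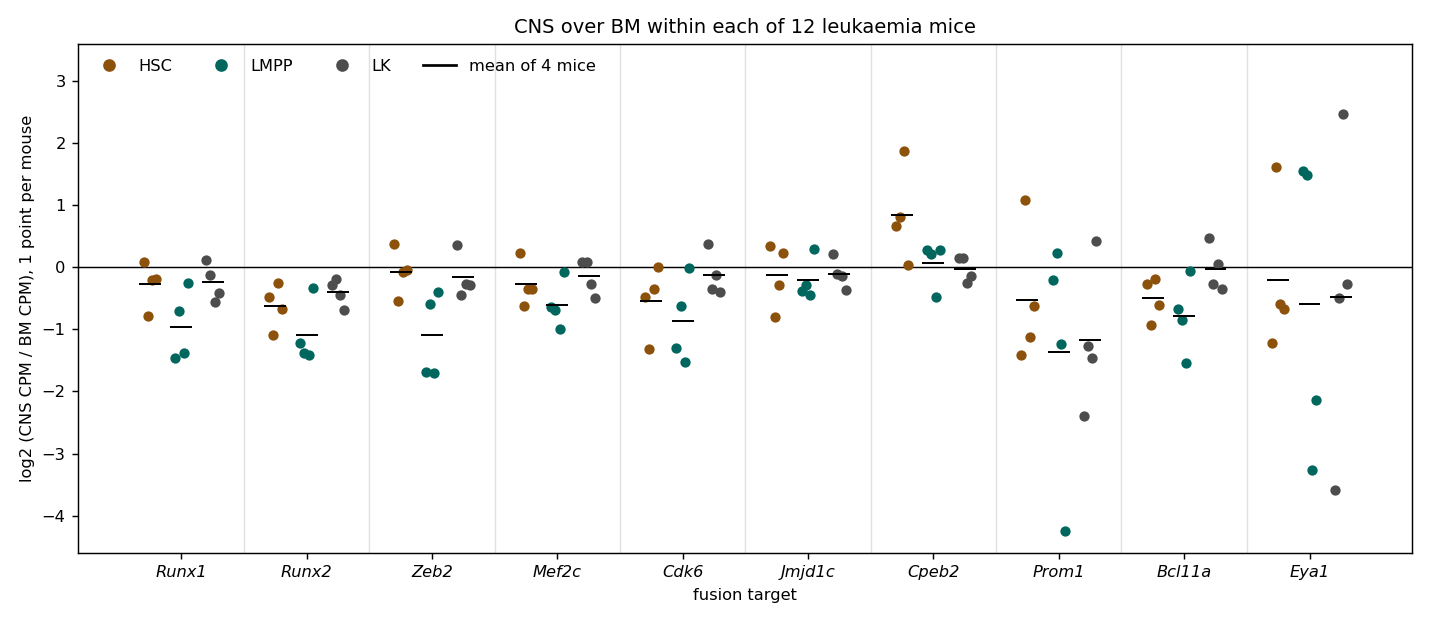
Log2 ratio of CNS CPM to BM CPM within each of the 12 leukaemia mice for each fusion target, coloured by sorted type, with the mean of 4 mice as a bar. All 12 Runx2 points lie below 0, between -1.41 and -0.18, while Prom1 and Eya1 scatter widely.

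Sums of cell type markers also differed between the niches, and their part in these values was not tested. The 13 macrophage and microglia markers summed to 109.6 to 413 CPM in CNS LMPP, against 53.9 to 153 CPM in BM LMPP, and to 119.8 to 2124 CPM in CNS HSC, against 84.2 to 265 CPM in BM HSC. In LK they summed to 86.3 to 146 CPM in CNS and 94.3 to 154 CPM in BM. The 12 neutrophil markers summed to 82.9 to 359 CPM in CNS LMPP, against 110.4 to 4347 CPM in BM LMPP. They summed to 305 to 1454 CPM in CNS HSC, against 1022 to 2175 CPM in BM HSC, lower in CNS in 4 of 4 mice, and to 1117 to 2183 CPM in CNS LK, against 1610 to 8242 CPM in BM LK, lower in 2 of 4 mice. The 8 neuron markers stood at 2.63 to 31.3 CPM in CNS LMPP and 6.54 to 29.3 CPM in BM LMPP, near the mean background of 10.0 and 7.79 CPM.

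Across the 24 leukaemia libraries the members fell into patterns that are given as a description, since these libraries share depth and background. Runx1 rose and fell with Zeb2 (Spearman rho 0.87) and Cdk6 (0.79), Runx2 with Mef2c (0.81), and Mef2c with Bcl11a (0.73) and Jmjd1c (0.71). Prom1 and Eya1 rose with the background share (rho 0.83 and 0.77), and Mef2c and Runx2 fell with it (-0.71 and -0.55). Among genes with a mean of at least 10 CPM, those most like Runx1 were Gng12 (0.91) and Fam107b (0.90), those most like Runx2 were Phf2 (0.91) and Tmem229b (0.90), and those most like Zeb2 were Mgat5 (0.89) and Runx1 (0.87). Mef2c was closest to Marf1 (0.90) and Ikzf1 (0.89), Cdk6 to Ino80d and Ripor1 (both 0.96), and Jmjd1c to Rbm26 and Macf1 (both 0.96). Cpeb2 was closest to Tgfbi (0.80), Bcl11a to Rai1 (0.95) and H2-Q6 (0.94), Prom1 to F5 (0.94) and Agap1 (0.91), and Eya1 to Epb41l1 (0.95) and Syn3 (0.94).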

How the data were processed

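RNA of the sorted cells was extracted with Quick-RNA Microprep columns and made into libraries with a stranded total RNA kit (SMARTer Stranded Total RNA-Seq Pico v3), per the labels' protocols. The authors deposited 2 tables, one for leukaemia and one for control, each with 55414 gene identifiers. The tables are called normalised, but the deposited values are whole-number counts per gene that sum to a different total in each library, and they were used as counts. DESeq2 and the build GRCm39 are named in the submitters' processing notes; aligner, counter and use of strand: not given in the sources used here. Symbols were found for 52081 identifiers and exon lengths for 52133; 3333 identifiers had no symbol. Exon lengths and exon overlaps were taken from the GENCODE M21 annotation (GRCm38). Promoter coordinates and the printed sequences are those of RefSeq for GRCm38.p6. Neither was used to make the counts.

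Genes reaching 10 counts in 4 or more libraries were tested with edgeR 4.0.16 (quasi-likelihood, TMM scaling, Benjamini-Hochberg over all genes, threshold 0.05) in R 4.3.3: 43483 genes for leukaemia BM against control BM, 40332 in leukaemia and 41609 in control. A background, assumed to be uniform, was estimated per kb from 1375 of 1448 sensory receptor genes matched, after trimming the highest 5%. A second test used the genes with more than 3 times this background plus 10 counts in 4 or more libraries, with TMM scaling on them. DESeq2 1.42.0, limma 3.58.1 with voom weights, other scalings, background subtraction, replicate blocks and leaving out libraries were the alternatives. CNS and BM libraries of one mouse are paired by the mouse identifier in the labels; the deviations of the 12 pairs correlated with a median of 0.187 (-0.474 to 0.667). Control libraries of one mouse had a median of -0.0268 (-0.435 to 0.130). The principal fits held no mouse term, so their p-values measure the spread among the libraries of a group, each from a different mouse. They treat libraries of one mouse in different groups as independent. With the mouse as a block, the p-values measure the spread of differences within mice. The scripts were tested on simulated counts. The members and gene lists were chosen with earlier results of these data known; of the lists of further targets and of relatives, the 6 genes with the smallest p and the paralogues of members were eligible to be named, and for each member the 2 genes most like it, of which 1 is not reported here.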

Additional observations from a re-analysis of the deposited data

Results flagged for a closer look

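Over 90 sets of 4 libraries (10 genes in 9 groups), 4 held a library far from the other 3, and chance alone flags about 1 set in 20. CNS LMPP replicate 4 was the highest of its group for Runx1 (81.8 CPM, next 48.5 CPM) and for Runx2 (169 CPM, next 84.1 CPM). BM HSC replicate 3 was the highest of its group for Zeb2 (139 CPM, next 107 CPM). BM LK replicate 3 was the lowest of its group for Bcl11a (42.8 CPM, next 69.8 CPM).

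The difference between leukaemia and control differed among the sorted types for Cdk6 (edgeR adjusted p = 0.00331), Zeb2 (0.0125), Bcl11a (0.0300) and Jmjd1c (0.0426).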

How the results depend on the processing

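The alternatives with the genes above background and their repeats without a library, and those without the 3 libraries left out together, were added after seeing the data. Of the members' values in leukaemia against control and CNS against BM, 0 reversed a call; contrasts between pairs of control types did turn, with Runx2 and Prom1 called in opposite directions in the principal test and on genes above background. In leukaemia against control, leaving out each library in turn gave 6 to 8 members called in HSC, 9 to 10 in LMPP, 2 to 4 in LK (2 without BM LK replicate 3) and 2 to 5 for the dependence on type. On genes above background these ranges were 6 to 7, 7 to 8, 2 to 4 and 1 to 4. The dependence on type, with 4 members in the principal test, had 2 under RLE size factors, library totals, DESeq2, genes above background, background subtraction, the replicate number as a block, and without the 3 libraries left out together, with and without the background filter; voom with sample weights gave 7. The replicate numbers of the 2 arms name different mice and pair nothing. For CNS against BM, the mean of the types had 1 member with voom and 2 with the mouse as a replicate block on genes above background, and LMPP had 2 with that block; with the block on all genes 0 passed. Without each mouse in turn the blocked counts were 0 to 2 for the mean, 0 to 3 for LMPP and 0 to 0 elsewhere. Without each library in turn the principal counts were 0 to 0. The types in leukaemia CNS, with 0 in the principal test, had 1 under RLE, 3 with DESeq2, 2 on genes above background, 4 on these without CNS HSC replicate 1, 9 with voom and 1 without the 3 libraries left out together; leaving out single libraries gave 0 to 2, with 2 without CNS HSC replicate 1. The cause was not tested. Control types gave 7 to 8 and leukaemia BM types 0 to 0. Over all genes, HSC had 8826 higher and 462 lower in the principal test, and 3524 and 2640 by library totals; LMPP had 11289 and 16008, and 5190 and 29922; LK had 965 and 564, and 738 and 959. The high background limits what can be read from Cpeb2, Prom1 and Eya1, and from the size of other differences from control. Only 5 or 6 of the 12 control libraries exceeded 3 times the background for Zeb2, Runx1, Mef2c and Jmjd1c. After subtraction of the background, their log2 differences in HSC were 2.33, 2.07, 2.68 and 2.23, against 0.84, 0.89, 1.16 and 0.93 on genes above background.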
